A study of Mus musculus with 15 samples.

Results

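The genes by which the renal proximal tubule recovers solutes, proteins and water from the filtrate, and the enzymes and scaffolds of its brush border, were followed in kidney and lung RNA. They are 39 genes of the 56748 in the deposited count table, found there by gene symbol, each exactly once. They were chosen by name for their known function, with earlier results of these data known. The 15 libraries, 3 in each of 5 groups, came from male C57Bl/6 mice labelled WT, with no engineered allele named. The labels number the replicates of a group without saying that each is a separate animal, so p-values measure the spread between these libraries. WTK kidneys came from mice given vehicle. IgGK and LepK kidneys came from mice given a single injection of folic acid at 200 mg/kg, which injures the tubule and leads to fibrosis, followed from day 1 by control IgG (IgGK) or by the leptin-neutralizing antibody LepAb (LepK). IgGL and LepL lungs came from mice given bleomycin at 1.5 units/kg into the trachea, followed by IgG or LepAb from day 1. The methods give an antibody dose of 10 mg/kg in lung, and in kidney a dose series from which 10 mg/kg was chosen for the later work. Mice were 10 to 12 weeks old in the kidney study and 12 weeks old in the lung study. Kidney mice were euthanized at day 28, after the antibody had been stopped, and lung mice at day 14. No library is labelled as from an uninjured mouse given LepAb and no uninjured lung was analysed here, so the LepAb comparisons describe injured organs. The titles name no antibody for WTK, and whether those mice received IgG is not clear from the methods. IgGK may therefore differ from WTK by folic acid and IgG together.

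The proximal tubule is the first segment of the nephron after the glomerulus. Its cells carry a dense brush border of microvilli, where sodium-coupled carriers take up glucose, phosphate, amino acids, organic acids and sulfate against their gradients. A basolateral sodium pump keeps those gradients, and carriers on that side pass the solutes to the blood. Filtered proteins are taken up by the receptors megalin and cubilin, and surface peptidases trim filtered peptides. Early segments (S1 and S2) carry the bulk of uptake with high-capacity carriers, while the late segment (S3) recovers what remains with high-affinity ones. Loss of these transcripts is a known feature of tubular injury.

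The defining markers were present in every kidney library. *Slc34a1*, *Slc5a2* and *Lrp2* together reached 11370 to 12138 normalized CPM (counts scaled to a common library size with the TMM factors of edgeR) in the WTK libraries and 29.4 to 157 in the lung libraries, where *Slc34a1* and *Slc5a2* were at or near 0. Total counts were 25913969 to 32321976 per kidney library and 29974718 to 38924788 per lung library. The labels give 1 batch date for all libraries, and replicates of a group differed by more than sampling noise. Mitochondrial transcripts took 9.41 to 9.62% of counts in WTK, 5.85 to 6.27% in IgGK and 8.01 to 9.65% in LepK. RNA of neighbouring organs was present in some kidney libraries. Summed adrenal cortex markers (*Cyp11b1*, *Cyp11a1* and *Star*) reached 374 and 445 normalized CPM in IgGK replicates 1 and 2, against 5.40 to 11.97 in the other 7 kidney libraries. Summed hepatocyte markers (5 genes, led by *Alb*) reached 862 in LepK replicate 2 and 102 in IgGK replicate 2, against 7.09 to 43.5 in the others. Counts over the genes are therefore also given without these libraries.

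The 39 genes took 2.51 ± 0.03% of all kidney counts in WTK (SD, n = 3 libraries), 1.22 ± 0.14% in IgGK and 1.69 ± 0.14% in LepK. Their summed level was 29667, 30007 and 28798 normalized CPM in the WTK libraries, 11842, 9051 and 11005 in IgGK, and 18960, 14950.1 and 15932 in LepK. The 3 groups did not overlap in this sum. Set against the WTK mean of each gene, the median level of the 39 genes was 41.2% in IgGK (range 9.71 to 609%) and 59.7% in LepK (range 24.3 to 513%). In IgGK 25 genes were below 50% of their WTK mean, and in LepK 9 genes were. These levels rest on the TMM factors, which differed by group. They were 0.84 to 0.86 in WTK, 1.14 to 1.18 in IgGK and 0.97 to 1.05 in LepK. Scaling by library size alone gave smaller falls, as given below. Because these are bulk libraries, fewer proximal tubule cells and less RNA per cell cannot be told apart.

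In IgGK against WTK, 35 of the 39 genes (89.7%) fell and 1 rose. A gene is called lower or higher when its adjusted p is under 0.05 and its log2 fold change lies beyond 0.5 in size. Over all 19593 genes tested in kidney, 15.6% were called lower and 21.7% higher in this comparison. The median log2 fold change was -1.28 over the 39 genes and 0.04 over all genes. In 35 of the genes every IgGK library lay below every WTK library, a pattern found in 30.1% of all genes tested. The phosphate carrier *Slc34a3* fell most, and *Slc7a12*, an amino acid carrier with very low WTK counts, was the gene that rose. The 3 genes that did not pass were *Slc5a1*, *Slc13a1* and *Slc10a2*. With scaling by library size only, the all-gene median stood at 0.48 and 28 of the 39 genes were lower and 4 higher, with *Slc5a1* at 0.69, *Slc13a1* at 0.58 and *Slc10a2* at 0.55. Over all genes tested, that scaling called 1178 lower and 7803 higher. The genes that lost the call under that scaling were *Slc6a13*, *Slc6a18*, *Slc13a2*, *Slc23a1*, *Slc15a2*, *Dab2* and *Anpep*. The count was 35 lower without IgGK replicates 1 and 2, which leaves 1 IgGK library assumed to vary like the other groups, and 35 lower without the libraries that held most hepatocyte transcripts.

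In LepK against IgGK, 23 of the 39 genes (59.0%) rose, and by edgeR's quasi-likelihood test none fell. At an unadjusted p under 0.05, 33 genes were higher and 1 was lower, and DESeq2 called 23 higher and 0 lower. Of all genes tested, edgeR called 4.38% higher and 5.99% lower at the adjusted p and fold threshold. Shares of all genes at an unadjusted p or by DESeq2 are not given here. The median log2 fold change was 0.55 over the 39 genes and -0.01 over all genes. Every LepK library lay above every IgGK library in 32 of the genes, as it did in 17.8% of all genes tested. A further 6 genes (*Slc9a3*, *Slc7a9*, *Slc1a1*, *Cubn*, *Anpep* and *Pdzk1*) had an adjusted p under 0.05 but stayed under the fold threshold, at 0.35 to 0.49 on the log2 scale. The number called depended on the libraries. It was 14 without IgGK replicate 2, 15 without LepK replicate 1 and 23 without the libraries that held most hepatocyte transcripts. Higher calls over all genes tested were 627, 594 and 774 in these fits, against 858 as reported. Of the 10 genes lost without the adrenal libraries, 6 kept a fold past the threshold and missed it on the adjusted p (edgeR, 0.0552 to 0.0862) with 1 IgGK library left. The genes lost without IgGK replicate 2 were *Slc6a13*, *Slc3a1*, *Slc13a2*, *Slc17a1*, *Slc17a3*, *Slc23a1*, *Lrp2*, *Amn* and *Mep1a*, at 0.43 to 0.49 on the log2 scale, and those lost without LepK replicate 1 were *Slc6a13*, *Slc3a1*, *Slc17a1*, *Slc17a3*, *Slc23a1*, *Lrp2*, *Amn* and *Mep1a*, at 0.41 to 0.499. IgGK replicate 2 was the lowest of its group in 29 of the 39 genes, and LepK replicate 1 the highest of its group in 34. Under library-size scaling, where the all-gene median was -0.19, 11 were called higher, as were 408 of all genes tested. The genes called under each of the 20 alternative fits were *Slc5a2*, *Slc34a1*, *Slc6a19*, *Slc6a20b*, *Slc13a3*, *Slc15a2*, *Mep1b* and *Cltrn*.

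In LepK against WTK, 25 genes were lower and 1, *Slc7a12*, was higher. Of all genes tested, 7.3% were called lower and 15.2% higher. The median log2 fold change was -0.74, against 0.03 over all genes. Every LepK library lay below every WTK library in 31 of the 39 genes, against 24.6% of all genes tested. The LepK and WTK libraries overlapped for *Slc5a1*, *Slc6a18*, *Slc13a1*, *Slc13a2*, *Slc15a2* and *Mep1b*. All LepK libraries were above all WTK libraries for *Slc7a12* and *Slc10a2*. The 3 kidney comparisons share libraries and are not independent of one another.

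**Figure D1:**
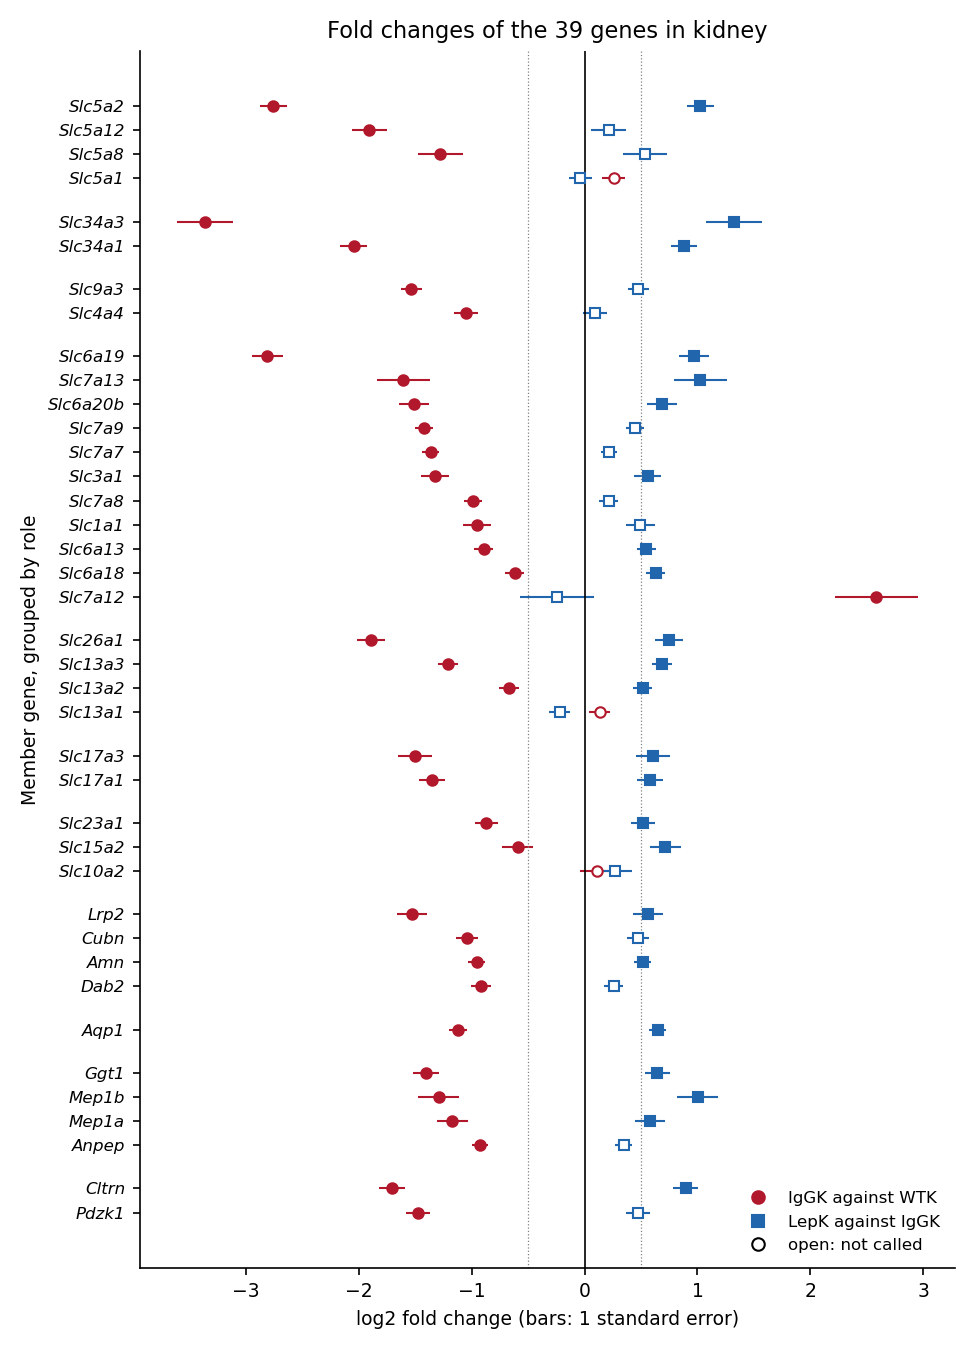
Log2 fold change (horizontal axis) of each of the 39 genes (vertical axis, grouped by role) in IgGK against WTK (red circles) and LepK against IgGK (blue squares), with bars of 1 standard error, open symbols for genes not called and dotted lines at the threshold of 0.5. Red circles lie left of 0 for 35 genes, down to -3.36 for *Slc34a3*, and blue squares lie right of 0 for 36, up to 1.32.

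Both sodium phosphate carriers fell in IgGK and rose in LepK against IgGK. *Slc34a1* (NaPi-IIa, the main brush border phosphate carrier) read at 9823, 9419 and 9154 normalized CPM across the WTK libraries, 2516, 1891 and 2459 across IgGK and 4869, 3781 and 3993 across LepK. The 3 groups did not overlap, and IgGK stood at 24.2% and LepK at 44.5% of the WTK mean. On the log2 scale this was -2.05 ± 0.12 (SE, adjusted p = 7.27e-08) for IgGK against WTK and 0.88 ± 0.12 (SE, adjusted p = 0.000511) for LepK against IgGK. *Slc34a3* (NaPi-IIc, ENSMUSG00000006469, chromosome 2, 25118910 to 25124376 in the table, GRCm39 per the labels) had 42.0, 35.1 and 31.7 across the WTK libraries, 3.76, 3.40 and 3.41 across IgGK and 12.7, 5.30 and 8.38 across LepK. It was the member with the largest fall, -3.36 ± 0.25 (SE, adjusted p = 3.57e-07), and also the one with the largest rise in LepK against IgGK, 1.32 ± 0.25 (SE, adjusted p = 0.00328). LepK libraries were spread widely for this gene and lay below all WTK libraries. Without both IgGK libraries that held adrenal transcripts, its rise was 1.38 with an adjusted p of 0.0811 (edgeR).

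Among the glucose and monocarboxylate carriers, 3 of 4 fell. *Slc5a2* (SGLT2, which takes up most filtered glucose in the early segments) read at 373, 349.9 and 326 normalized CPM across the WTK libraries, 49.5, 51.3 and 54.3 across IgGK and 130.2, 92.2 and 93.0 across LepK. The 3 IgGK libraries were close together and no groups overlapped. The log2 difference was -2.76 ± 0.12 (SE, adjusted p = 1.5e-08) for IgGK against WTK and 1.02 ± 0.12 (SE, adjusted p = 0.000244) for LepK against IgGK. *Slc5a1* (SGLT1, the high-affinity glucose carrier of the late segment) had 69.5, 74.2 and 71.8 across the WTK libraries, 95.2, 74.2 and 88.0 across IgGK and 82.4, 73.1 and 95.5 across LepK. IgGK replicate 2 stood at the level of the highest WTK library and the LepK libraries overlapped both groups, with log2 fold changes of 0.26 ± 0.10 (SE, adjusted p = 0.055) and -0.04 ± 0.10 (SE, adjusted p = 0.843). The lactate carriers *Slc5a8* and *Slc5a12* fell to 41.2% and 26.6% of their WTK means in IgGK. In LepK they stood at 59.7% and 30.9%, and neither passed in LepK against IgGK, at log2 differences of 0.54 ± 0.20 (SE, adjusted p = 0.076) for *Slc5a8* and 0.21 ± 0.15 (SE, adjusted p = 0.371) for *Slc5a12*. For *Slc5a8* the 3 LepK libraries were all above the 3 IgGK libraries, while for *Slc5a12* they overlapped.

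The acid-base carriers fell without a called change between LepK and IgGK. *Slc9a3* (NHE3, the apical sodium-proton exchanger) averaged 203 ± 5.999 normalized CPM over the WTK libraries (SD, n = 3), 70.2 ± 8.66 over IgGK and 97.5 ± 8.79 over LepK. Its log2 difference was -1.54 for IgGK against WTK and 0.47 ± 0.09 (SE, adjusted p = 0.00379) for LepK against IgGK, just under the fold threshold. *Slc4a4* (NBCe1, the basolateral bicarbonate exit) averaged 884 ± 91.0 over WTK, 426 ± 37.0 over IgGK and 455 ± 60.1 over LepK. *Slc4a4* fell by 1.05 (log2) in IgGK. The LepK and IgGK libraries overlapped, at 0.09 ± 0.11 (SE, adjusted p = 0.596).

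Of the 11 amino acid carriers, 10 fell and 1 rose in IgGK, and 6 rose in LepK against IgGK. *Slc6a19* (B0AT1, the main brush border carrier of neutral amino acids) read at 427, 507 and 433 normalized CPM across the WTK libraries, 68.4, 55.5 and 70.9 across IgGK and 154, 107 and 120.3 across LepK. It stood at 14.3% of WTK in IgGK and 27.9% in LepK, with no overlap of groups. Its log2 fold changes were -2.81 ± 0.14 (SE, adjusted p = 2.62e-08) and 0.97 ± 0.13 (SE, adjusted p = 0.000537). Its neighbour *Slc6a18* (B0AT3), whose gene lies 1721 bases away on chromosome 13 on the same strand, fell far less. It had 766, 767 and 790.3 across the WTK libraries, 547, 457 and 507 across IgGK and 838, 710.4 and 790.2 across LepK, so that LepK overlapped WTK. The log2 fold changes of *Slc6a18* were -0.62 ± 0.08 (SE, adjusted p = 3.68e-05) and 0.63 ± 0.08 (SE, adjusted p = 0.000476).

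*Slc7a13* (AGT1, an S3 carrier of aspartate and glutamate) read at 1014, 884 and 899 normalized CPM across the WTK libraries, 369.6, 180.0 and 369 across IgGK and 797, 553 and 522 across LepK. IgGK replicate 2 was well below the other IgGK libraries and LepK replicate 1 well above the other LepK libraries. *Slc7a13* fell in IgGK, at -1.61 ± 0.23 (SE, adjusted p = 8.08e-05) on the log2 scale, and rose by 1.03 ± 0.23 (SE, adjusted p = 0.00838) in LepK against IgGK. The latter was 0.77 with an adjusted p of 0.0626 (edgeR) without the IgGK libraries that held adrenal transcripts. *Slc7a12*, a related carrier, was higher after injury, with 0.498, 1.66 and 2.74 across the WTK libraries, 10.4, 9.83 and 9.60 across IgGK and 9.15, 7.27 and 8.71 across LepK. Its WTK values rest on 12 to 76 counts per library, and all injured libraries were above all WTK libraries. It rose by 2.58 ± 0.37 (SE, adjusted p = 6.58e-05) in IgGK against WTK, and its difference between LepK and IgGK was -0.25 ± 0.33 (SE, adjusted p = 0.65).

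The cystine and dibasic amino acid carrier is a pair of *Slc3a1* (rBAT, the heavy subunit) and *Slc7a9* (the light subunit). *Slc3a1* averaged 336 ± 6.61 normalized CPM over WTK (SD, n = 3), 134 ± 18.8 over IgGK and 198 ± 33.6 over LepK. *Slc7a9* averaged 177 ± 17.6 over WTK, 66.1 ± 1.61 over IgGK and 90.3 ± 6.34 over LepK. Both fell by a similar amount in IgGK (-1.32 and -1.42 on the log2 scale), while in LepK against IgGK *Slc3a1* was called at 0.56 and *Slc7a9* was under the fold threshold at 0.45. The basolateral carriers *Slc7a7* (y+LAT1) and *Slc7a8* (LAT2) fell by 1.36 and 0.99 (log2) in IgGK. They were higher than IgGK in every LepK library without being called, at 0.22 ± 0.07 (SE, adjusted p = 0.0611) and 0.21 ± 0.08 (SE, adjusted p = 0.0855). *Slc6a20b* (log2 fold change -1.51 in IgGK and 0.69 in LepK against IgGK) and *Slc6a13* (GAT2, -0.90 and 0.55) were called in both comparisons. *Slc1a1* (the glutamate carrier EAAC1) fell in IgGK (-0.95) and was at 0.49 ± 0.13 (SE, adjusted p = 0.0154) in LepK against IgGK, under the fold threshold.

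Sulfate and dicarboxylate carriers fell in 3 of 4 cases. *Slc13a1* (NaS1, apical sulfate uptake) did not pass in either comparison, with 262, 291 and 244 normalized CPM across the WTK libraries, 309, 294 and 272 across IgGK and 253, 220.5 and 277 across LepK. All 3 groups overlapped, and its log2 fold changes were 0.13 ± 0.09 (SE, adjusted p = 0.249) and -0.22 ± 0.09 (SE, adjusted p = 0.119). *Slc26a1* (Sat1, basolateral sulfate exit) fell to 26.9% of WTK in IgGK and stood at 45.3% in LepK, with log2 fold changes of -1.89 and 0.75, both called. The citrate and succinate carriers *Slc13a2* (NaDC1, apical) and *Slc13a3* (NaDC3, basolateral) stood at 62.9% and 43.3% of WTK in IgGK and at 89.9% and 69.6% in LepK. Both were called in both comparisons, at -0.67 and -1.21 in IgGK and 0.52 and 0.69 in LepK against IgGK. The urate and organic anion carriers *Slc17a1* and *Slc17a3*, neighbours 7033 bases apart on chromosome 13, moved alike. They fell by 1.35 and 1.50 (log2) in IgGK and rose by 0.58 and 0.60 in LepK against IgGK.

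Of the ascorbate, peptide and bile acid carriers, *Slc23a1* (SVCT1, vitamin C) and *Slc15a2* (PEPT2, small peptides) fell in IgGK, by 0.87 and 0.59 on the log2 scale. They rose in LepK against IgGK by 0.52 and 0.72. The fall of *Slc15a2* was under the fold threshold without WTK replicate 2 (-0.43) and without IgGK replicate 3 (-0.47). *Slc15a2* read at 80.8, 112 and 83.6 normalized CPM across the WTK libraries, 70.1, 62.4 and 50.7 across IgGK and 111, 95.5 and 94.0 across LepK, and the LepK and WTK libraries overlapped. *Slc10a2* (ASBT, bile acids) had 39.2, 40.8 and 34.2 across the WTK libraries, 51.5, 31.2 and 40.5 across IgGK and 48.6, 44.5 and 55.5 across LepK. The IgGK libraries spanned those of WTK. It passed in no kidney comparison, at 0.11 ± 0.15 (SE, adjusted p = 0.576) for IgGK against WTK and 0.27 ± 0.15 (SE, adjusted p = 0.229) for LepK against IgGK.

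The 4 genes of receptor-mediated protein uptake all fell in IgGK. *Lrp2* (megalin) read at 1942, 2018 and 1890.3 normalized CPM across the WTK libraries, 778, 563 and 683 across IgGK and 1196, 836 and 954 across LepK. Groups did not overlap, and the log2 fold changes of *Lrp2* were -1.53 ± 0.13 (SE, adjusted p = 1.15e-06) and 0.56 ± 0.13 (SE, adjusted p = 0.0101). Its rise in LepK stayed under the fold threshold without IgGK replicate 2 (0.45) and without LepK replicate 1 (0.41). *Cubn* (cubilin) and its membrane anchor *Amn* (amnionless) fell by 1.04 and 0.96 (log2). In LepK against IgGK *Amn* was called just over the fold threshold, at 0.51 ± 0.07 (SE, adjusted p = 0.000789), and *Cubn* stayed under the fold threshold at 0.48 ± 0.10 (SE, adjusted p = 0.00502). *Dab2*, the adaptor that links megalin to the endocytic coat, fell by 0.92 and was at 0.26 ± 0.09 (SE, adjusted p = 0.0507) in LepK against IgGK, where its libraries overlapped.

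*Aqp1*, the constitutive water channel of the proximal tubule and thin limb, read at 1055, 1135 and 1149 normalized CPM across the WTK libraries, 562, 460.2 and 513 across IgGK and 826, 790.2 and 785 across LepK. The groups did not overlap, and the log2 fold changes were -1.12 ± 0.08 (SE, adjusted p = 2.45e-07) and 0.65 ± 0.08 (SE, adjusted p = 0.000343).

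All 4 brush border peptidases fell in IgGK, and 3 rose in LepK against IgGK. *Mep1b* (meprin beta) read at 258, 231 and 239 normalized CPM across the WTK libraries, 119, 67.2 and 111 across IgGK and 242, 176 and 176 across LepK. LepK replicate 1 lay within the WTK range and the other LepK libraries below it. Its log2 fold changes were -1.30 ± 0.18 (SE, adjusted p = 5.81e-05) and 1.0003 ± 0.18 (SE, adjusted p = 0.00247). *Mep1a* (meprin alpha) and *Ggt1* (gamma-glutamyltransferase), among the most abundant of the 39 genes, fell by 1.17 and 1.41 and rose in LepK by 0.58 and 0.64. *Anpep* (aminopeptidase N) had 233, 242 and 224 across the WTK libraries, 128, 116 and 124 across IgGK and 171, 146 and 151 across LepK. No groups of *Anpep* overlapped, yet its difference of 0.35 ± 0.07 (SE, adjusted p = 0.00631) between LepK and IgGK was under the fold threshold.

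*Cltrn* (collectrin), which brings B0AT-type carriers to the brush border, read at 1389.8, 1422 and 1372 normalized CPM across the WTK libraries, 464, 366 and 452 across IgGK and 922, 678 and 783 across LepK. Its log2 fold changes were -1.71 ± 0.11 (SE, adjusted p = 1.79e-07) and 0.89 ± 0.11 (SE, adjusted p = 0.000394), with no overlap of groups. *Pdzk1*, a scaffold that binds NaPi-IIa and other carriers under the membrane, fell by 1.48 and stood at 0.47 ± 0.11 (SE, adjusted p = 0.00798) in LepK against IgGK, under the fold threshold.

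**Figure D2:**
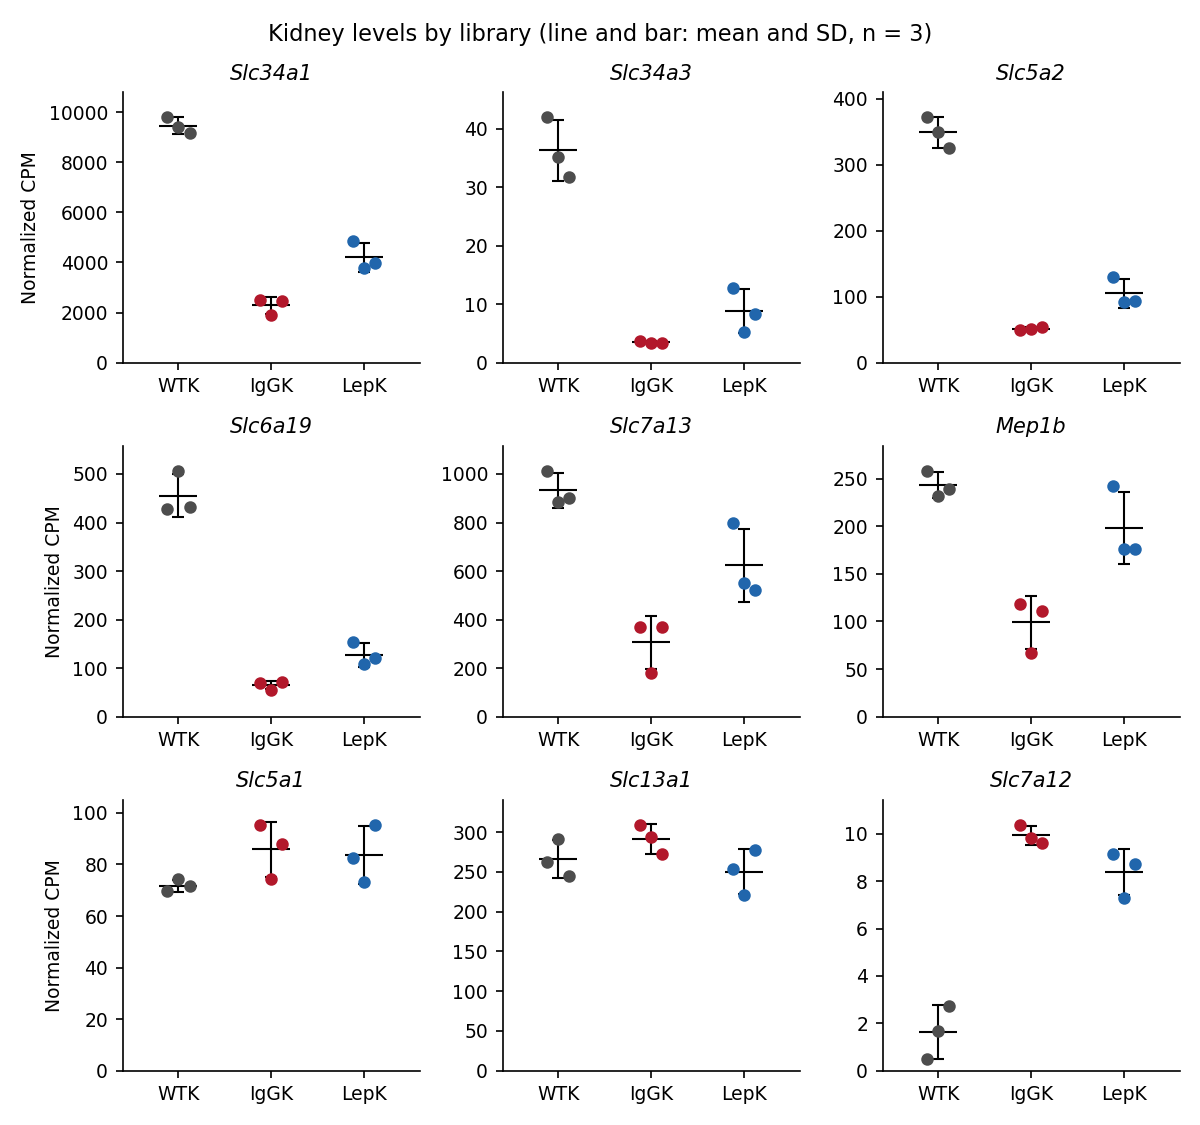
Normalized CPM (vertical axes, from 0) of 9 of the genes in each WTK, IgGK and LepK library (points), with the group mean and SD (line and bar, n = 3). *Slc34a1*, *Slc34a3*, *Slc5a2* and *Slc6a19* show 3 separate groups, *Slc5a1* and *Slc13a1* hardly separate by group, and *Slc7a12* is low in WTK.

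Per kilobase of gene length, which allows genes to be compared, WTK levels ran from 0.938 normalized CPM per kilobase for *Slc7a12* to 2024 for *Slc34a1*, with a median of 76.7. *Cltrn* (903), *Mep1a* (601) and *Ggt1* (560) followed *Slc34a1*. *Slc34a1* remained the highest in IgGK (489) and LepK (901). The lowest gene in both injured groups was *Slc34a3* (1.49 in IgGK and 3.73 in LepK). Of the 10 highest in WTK per kilobase, 7 are also among the 10 highest without length correction.

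Some of the genes were listed by segment. The rest, among them *Slc9a3*, *Lrp2*, *Slc7a9* and *Cubn*, were listed for neither. All 8 genes listed for S1 and S2 (*Slc5a2*, *Slc5a12*, *Slc34a1*, *Slc34a3*, *Slc4a4*, *Slc6a19*, *Slc7a7* and *Slc7a8*) fell in IgGK, with a median log2 fold change of -1.98 and a range from -3.36 to -0.99. Of 6 genes listed for S3 (*Slc5a1*, *Slc5a8*, *Slc7a13*, *Slc15a2*, *Slc6a18* and *Slc3a1*), 5 fell, with a median of -0.95 and a range from -1.61 to 0.26. In LepK against IgGK, 4 of 8 early and 4 of 6 late genes rose, with medians of 0.55 and 0.59. The early genes that rose were *Slc34a3* (1.32), *Slc5a2* (1.02), *Slc6a19* (0.97) and *Slc34a1* (0.88), while *Slc7a7* (0.22), *Slc5a12* (0.21), *Slc7a8* (0.21) and *Slc4a4* (0.09) were not called. The medians depend on which genes were listed, and the difference between segments was not tested.

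Of 33 other proximal tubule transport and brush border genes, 21 fell and 2 rose in IgGK (median log2 fold change -0.67). The deepest falls were in *Car14* (-2.01), a membrane carbonic anhydrase, *Ace* (-1.57), angiotensin-converting enzyme, and *Slc2a2* (-1.46), the basolateral glucose exit GLUT2. The 2 that rose were the amino acid carriers *Slc36a2* (2.76) and *Slc38a3* (0.95). In LepK against IgGK, 9 of the 33 rose and none was called lower by edgeR (median 0.29). *Treh* (0.84), brush border trehalase, *Car14* (0.77) and *Car4* (0.73), a membrane carbonic anhydrase, rose most. *Slc2a2* was at 0.26 in that comparison and was not called.

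From a longer list of transcription factors of the proximal tubule, *Ppara* (-1.54), a regulator of fatty acid oxidation, and *Hnf4a* (-1.34), which maintains the proximal tubule program, were among those that fell in IgGK. Neither was called in LepK against IgGK, at -0.02 for *Ppara* and 0.45 for *Hnf4a*. The promoters of the 39 genes were searched for the core bound by HNF4 (CAAAGTCCA) on both strands. RefSeq promoters of GRCm38.p6, running from 250 bases before to 50 bases after a start, were found for 31 of the genes (47 promoters). The core was present in 2 of these 47 promoters (4.26%) and in 156 of all 32851 (0.475%). The genes with a core were *Slc3a1* and *Pdzk1*.

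The promoters of *Slc3a1*, which holds the core, and of *Slc34a3*, the gene that moved most, are shown 5′ to 3′ on the strand of the gene, with bases of the core in capitals. *Slc3a1* lies at chr17:85028097-85028396 (plus strand) and *Slc34a3* at chr2:25234185-25234484 (minus strand), both in GRCm38.p6.
Slc3a1: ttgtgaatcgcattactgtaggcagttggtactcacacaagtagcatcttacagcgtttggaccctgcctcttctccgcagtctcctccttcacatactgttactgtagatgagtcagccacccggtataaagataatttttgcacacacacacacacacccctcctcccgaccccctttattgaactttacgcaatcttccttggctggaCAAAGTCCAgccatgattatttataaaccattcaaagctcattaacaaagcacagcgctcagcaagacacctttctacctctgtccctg
Slc34a3: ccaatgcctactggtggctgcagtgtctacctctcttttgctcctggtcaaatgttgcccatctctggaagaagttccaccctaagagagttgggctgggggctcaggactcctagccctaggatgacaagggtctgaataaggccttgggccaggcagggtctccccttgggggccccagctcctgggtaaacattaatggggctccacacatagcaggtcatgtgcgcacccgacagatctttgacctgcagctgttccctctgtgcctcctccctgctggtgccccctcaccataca
In *Slc3a1* the core began 39 bases before the start. No match lies in this window of *Slc34a3*. A match is a description of the sequence, and binding was not measured.

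Markers of other cells moved with these groups. All 7 fibroblast markers rose in IgGK, the collagen genes *Col3a1* (3.91) and *Col1a1* (3.88) most, and 6 fell in LepK against IgGK, with summed levels of 184 to 244 normalized CPM in WTK, 1410 to 1600 in IgGK and 504 to 836 in LepK. All 7 macrophage markers rose in IgGK, *Lyz2* (4.84) most, and 6 fell in LepK against IgGK, with sums of 182 to 210.0, 1637 to 2080 and 582 to 866. Of 9 markers of injured tubule, 8 rose in IgGK, *Havcr1* (6.99), *Krt20* and *Lcn2* (5.25) most, and 6 fell in LepK against IgGK, with sums of 736 to 775, 7224 to 7645 and 3233 to 4655. Of 10 markers of the loop of Henle, distal tubule and collecting duct, 3 fell in IgGK and 5 rose in LepK against IgGK, with a median of -0.24 and 0.51, and sums of 4486 to 4489, 3121 to 3652 and 4474 to 4888. None of these markers was at 0 in any kidney group. The 3 adrenal markers rose in IgGK and fell in LepK against IgGK, and 2 of 5 hepatocyte markers rose in IgGK, with *Cyp11b1* and *Ahsg* at 0 in WTK. The part of these shifts in the values of the 39 genes was not tested.

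**Figure D3:**
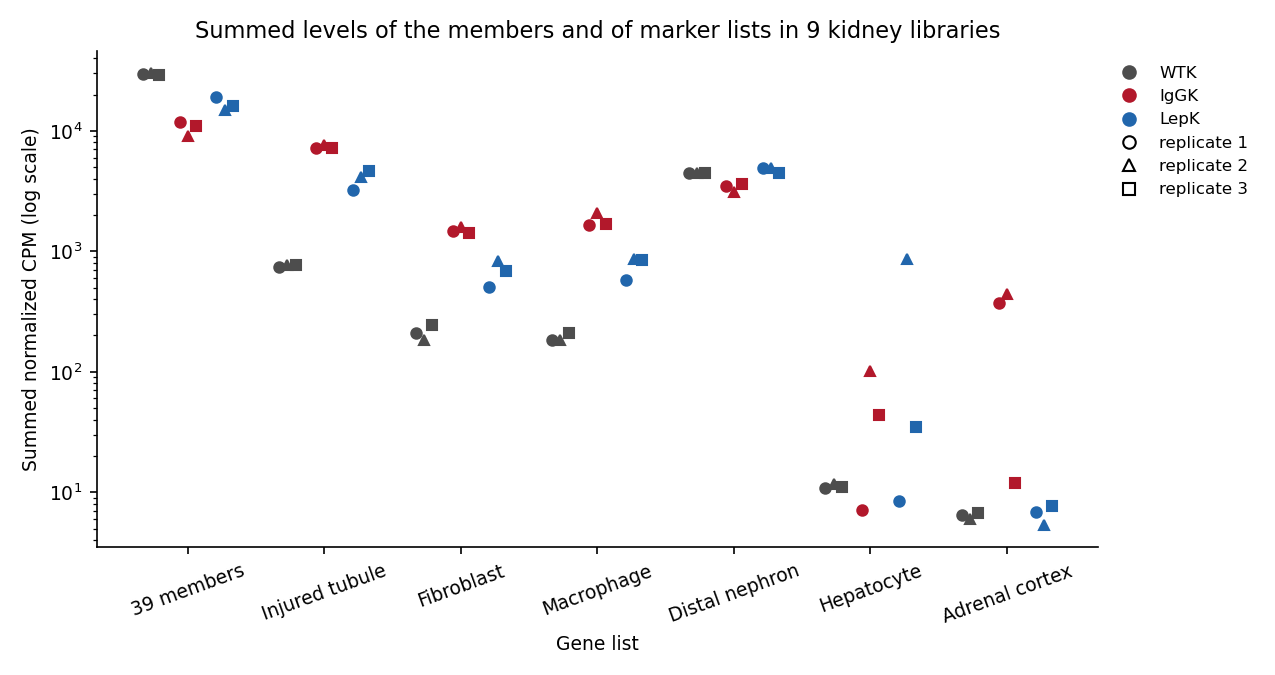
Summed normalized CPM (vertical axis, log scale) of the 39 genes and of 6 marker lists (horizontal axis) in each WTK, IgGK and LepK library, with symbols for the replicates. The sum of the 39 genes is highest in WTK (28798 to 30007) and lowest in IgGK (9051 to 11842), the injured tubule, fibroblast and macrophage sums run the other way, and hepatocyte and adrenal RNA stands out in single libraries.

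The libraries were non-directional, so reads of a gene that overlaps another on the genome cannot be separated from those of the other by strand. Of the 39 genes, 21 overlap another annotated gene, and in 8 that gene reached at least 10% of the level of the member in a kidney group. The largest were *Oxa1l*, at up to 186% of *Slc7a7*, and *Paip2*, at up to 73.8% of *Slc23a1*. *Rusf1*, which overlaps *Slc5a2*, averaged 30.9 normalized CPM over WTK, 24.0 over IgGK and 25.4 over LepK. These 3 genes were named after their values were seen. Whether shared reads add to these members was not tested.

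In lung, 23 of the 39 genes were under 1 normalized CPM in both groups, 7 reached 1 to 10 and 9 reached 10 or more. *Slc7a12* and *Slc17a3* had no count in any lung library. The 22 genes that passed the filter on low counts include the carriers and receptors that other epithelia and endothelium also use. *Aqp1* was the highest, with 703, 692 and 980.1 normalized CPM in IgGL and 647, 698 and 717 in LepL, and its groups overlapped, at a log2 difference of -0.20 ± 0.16 (SE, adjusted p = 0.438). Kidney and lung libraries were scaled separately, so levels are set side by side only roughly.

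In LepL against IgGL, *Amn* was the single gene called lower among the 22, and by edgeR none was called higher. Of all 19617 genes tested in lung, 2.36% were called lower and 1.78% higher. At an unadjusted p under 0.05, 3 of the 22 were lower and 6 higher, and DESeq2 called 3 lower and 3 higher. No share of all genes is given for the unadjusted p or DESeq2. *Amn* had 1.22, 4.28 and 3.06 normalized CPM in IgGL and 0.751, 0.555 and 0.353 in LepL. All LepL libraries were below all IgGL libraries at these low levels, and the log2 difference was -2.37 ± 0.52 (SE, adjusted p = 0.0444). Its adjusted p was over 0.05 with the replicate number as a block and without any single lung library other than IgGL replicate 1, while the log2 difference stayed between -1.95 and -2.65. In those fits hardly any gene of the table was called, 0 to 4 lower and 0 to 18 higher, against 463 and 349 as reported. Without IgGL replicate 1, 3 of the genes were lower and 5 higher, and over all genes tested 1602 were lower and 1937 higher.

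In 3 of the 22 genes (*Amn*, *Dab2* and *Slc7a8*) every LepL library lay below every IgGL library, as in 17.3% of all genes tested in lung, and in 6 (*Slc5a1*, *Slc5a12*, *Slc4a4*, *Slc23a1*, *Lrp2* and *Anpep*) every LepL library lay above, as in 16% of all genes tested. Except for *Amn*, none of these was called. *Lrp2* had 88.6, 47.9 and 29.3 normalized CPM in IgGL and 157, 121 and 142 in LepL. All LepL libraries were higher, by 1.34 ± 0.33 (SE, adjusted p = 0.0546) on the log2 scale. Without IgGL replicate 1, the highest of its group, *Lrp2* was called higher at 1.86 with an adjusted p of 0.00115 (edgeR), and DESeq2 called it on all libraries. *Dab2* (164, 249 and 258 in IgGL and 138, 148 and 121 in LepL) and *Slc7a8* (18.2, 28.3 and 37.2 and 16.5, 13.1 and 10.4) lay below IgGL in every LepL library, at -0.72 ± 0.17 (SE, adjusted p = 0.0516) and -1.07 ± 0.26 (SE, adjusted p = 0.0545). *Slc4a4* stood at 0.56 ± 0.14 (SE, adjusted p = 0.0583), *Slc5a1* at 0.64, *Slc23a1* at 0.55 and *Anpep* at 0.37. *Slc5a12*, at 1.78, had at most 1.41 normalized CPM in a lung library. IgGL libraries were far apart for *Lrp2* and *Slc7a8*.

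Whether LepAb moved the genes differently in the 2 organs was tested as an interaction of organ and antibody over the 12 libraries of injured organs, with differences given as kidney less lung. It can be read only for the 22 genes that passed the filter on low counts in lung. It was called higher in kidney for 5 of these 22, *Amn*, *Slc7a8*, *Cubn*, *Dab2* and *Aqp1*. For none was it lower by edgeR, where 3 genes were lower and 8 higher at an unadjusted p under 0.05 and DESeq2 called 0 lower and 6 higher. Of the 17735 genes that passed the filter in both organs, edgeR called 3.7% higher and 3.96% lower. No such share is given for the unadjusted p or DESeq2. For *Aqp1* the difference was 0.88 ± 0.19 (SE, adjusted p = 0.0205), with LepK above IgGK in every library and the lung groups overlapping. For *Dab2* it was 1.01 ± 0.22 (SE, adjusted p = 0.021) and for *Slc7a8* 1.31 ± 0.29 (SE, adjusted p = 0.0227), where all LepL libraries were below all IgGL libraries. *Amn*, at 2.94 ± 0.46 (SE, adjusted p = 0.0078), and *Cubn*, at 1.19 ± 0.27 (SE, adjusted p = 0.0256), had under 5 normalized CPM in each lung library. *Amn* was called under each of the 20 alternatives, and each of the other 4 was lost under at least 1. The count among the 22 was 1 without IgGK replicate 2, 1 without LepK replicate 1, 2 without LepL replicate 3, 3 without IgGK replicate 3 and 3 without IgGL replicate 2. In these fits higher calls over all 21488 genes fitted were 147, 141, 150, 274 and 157, against 683 (3.18%) as reported, with 3.49% lower. *Slc34a3*, *Mep1a* and *Slc6a13* entered the fit through their kidney counts. They were under 0.5 normalized CPM in every lung library, so none is read as a LepAb effect in lung. *Slc34a3* and *Mep1a* had no count in LepL, and their fitted differences depend on the prior count. That of *Slc6a13* rests on 38 counts over the IgGL libraries and 10 over LepL.

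**Figure D4:**
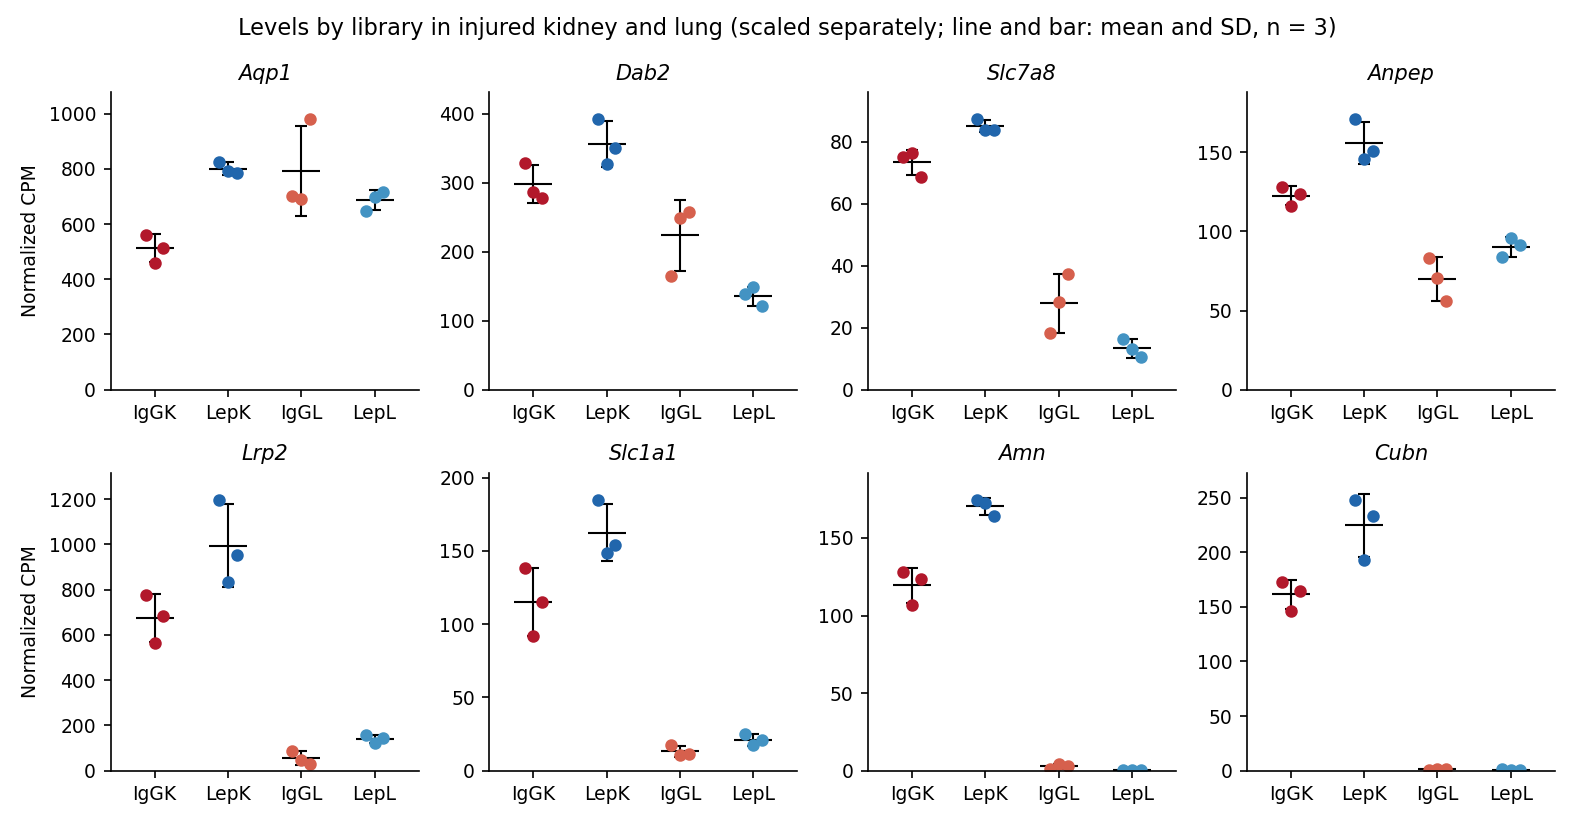
Normalized CPM (vertical axes, from 0) of 8 genes in each IgGK, LepK, IgGL and LepL library (points), with the group mean and SD (line and bar, n = 3). *Aqp1* is abundant in both organs, *Dab2* and *Slc7a8* are lower in LepL than in IgGL, and *Amn* and *Cubn* are near 0 in lung.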

How the data were processed

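RNA was measured by poly(A)-selected, non-directional RNA sequencing of 9 kidney and 6 lung libraries. Samples were grouped by title and treatment label, since a description line in many labels names another group. The authors deposited 1 table of raw read counts per gene for 56748 genes, with 15 count columns, and the submitters' notes name the genome build GRCm39. The aligner and the counting tool are not given in the sources used here. The table also holds the authors' group means, FPKM values, fold changes and p-values, which were not used. Counts were analysed as deposited. Genes with low counts were removed with filterByExpr (minimum count 10, minimum total count 15), libraries were scaled with TMM factors, and groups were compared with the quasi-likelihood test of edgeR 4.0.16 in R 4.3.3, separately in kidney (9 libraries, 6 residual degrees of freedom), in lung (6 libraries, 4) and, for the organ interaction, in 12 libraries (8). All adjusted p-values are Benjamini-Hochberg values over all genes tested, and genes were called at an adjusted p under 0.05 and an absolute log2 fold change over 0.5. Kidney and lung levels are normalized CPM, each scaled within its organ, and levels per kilobase use the gene length in the table. Total counts of 25913969 to 38924788 limit precision, and they cover counting error only.

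The members, marker lists and tests were chosen with earlier results of these data known. Hepatocyte markers, and the fits without libraries that held hepatocyte or adrenal transcripts, were added after the data were seen. Every member could be named, and from other lists up to 3 genes with the largest change in each direction of the main kidney comparisons. Libraries were not treated as paired by replicate number in the main fits. Correlations of same-numbered deviations ran from -0.06 to 0.18. For LepK against IgGK they were 0.18, 0.17 and -0.03 for replicates 1, 2 and 3. Such values do not exclude pairing. Alternatives were DESeq2 1.42.0, other scaling, no filter, other fold thresholds, a replicate block, fits of the compared groups only and each library left out. The edgeR fit as reported and DESeq2 were tested on simulated data for LepK against IgGK, LepL against IgGL and the organ interaction. The other comparisons and alternatives were not. Promoter sequences came from RefSeq in GRCm38.p6, another build than that of the table, and were matched by symbol. Some results, among them a second promoter motif and counts over a list of transcription factors, are not reported here.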

Additional observations from a re-analysis of the deposited data

Results flagged for a closer look

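The difference between the LepAb effect in kidney and that in lung passed the interaction test of edgeR, as higher in kidney, for 5 of the 22 genes measured in both organs, while 3.7% of all genes measured in both organs did so. Organ cannot be told apart here from injuring agent and day of collection. The log2 differences were 2.935 for *Amn*, 1.31 for *Slc7a8*, 1.19 for *Cubn*, 1.01 for *Dab2* and 0.88 for *Aqp1*. Such a difference joins the change in kidney with that in lung. For *Slc7a8* and *Dab2* neither change was called on its own, and every LepL library lay below every IgGL library. For *Amn* a called rise in kidney met a called fall in lung. *Amn* and *Cubn* had under 5 normalized CPM in each lung library. *Amn* was called in every alternative fit. The fit also gave 5.98 for *Slc34a3*, 6.13 for *Mep1a* and 2.49 for *Slc6a13*, which were below the filter on low counts in lung. *Slc34a3* and *Mep1a* had no count in any LepL library. The values of *Slc34a3* and *Mep1a* depend on the prior count, and that of *Slc6a13* rests on 38 counts over IgGL and 10 over LepL. None of the 3 shows a difference between the organs.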

How the results depend on the processing

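In IgGK against WTK, 28 of the 35 genes that fell were called under each of 20 alternative fits. In LepK against WTK, 19 of the 25 lower genes were. Leaving out 1 library at a time gave 34 to 35 lower genes, a median between -1.38 (without IgGK replicate 1) and -1.07 (without IgGK replicate 2), and in LepK against IgGK 14 (without IgGK replicate 2) to 28 (without IgGK replicate 1) higher genes, with 15 without LepK replicate 1. Library-size scaling gave 4 higher genes and a median of -0.84 in IgGK against WTK, where 7803 of all genes tested were higher and 1178 lower. It gave 11 higher in LepK against IgGK, where 408 of all genes were higher. In LepK against WTK it gave 2 higher and a median of -0.49, and 6 of the 25 lower calls were lost. Over all genes, 4782 were higher and 512 lower in that comparison. Requiring an absolute log2 fold change over 1 left 4 higher in LepK against IgGK and 9 lower in LepK against WTK. The share of all genes at that threshold is not given. Among fits chosen after seeing the data, leaving out both libraries with most hepatocyte transcripts moved the IgGK against WTK median to -1.07, and leaving out both with most adrenal transcripts gave 13 higher in LepK against IgGK. In lung, 1 gene was higher under library-size scaling (303 over all genes) and 1 under upper quartile scaling (386 over all genes). DESeq2 called 3 lower and 3 higher there. No filter on low counts gave 3 lower and 3 higher, with 1173 lower and 1515 higher over all genes. Without single lung libraries the number lower was 0 to 3, the number higher 0 to 5 and the median 0.087 to 0.27. For the organ difference, library-size scaling gave 2 lower genes and a median of 0.35, where the median of all genes was shifted by -0.25. Over all genes it gave 1856 lower and 218 higher. No filter gave 4 lower and 13 higher, with 1555 lower and 1067 higher over all genes. Without single libraries the interaction gave 0 to 2 lower and 2 to 8 higher of the 39 genes, and 1 to 5 higher of the 22 measured in lung. In LepK against IgGK, in lung and in the interaction, the number of genes called in the whole table also changed when libraries were left out. Other causes were not tested. Whether equal replicate numbers pair the libraries is not known. With the replicate block 35 genes were lower in IgGK against WTK, 25 higher in LepK against IgGK, 26 lower in LepK against WTK, 7 higher in the interaction, and 0 lower in lung, where *Amn* lost its call. With 3 libraries a group, low lung counts and bulk tissue, absence of a call does not show that levels were equal.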

Other observations

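Lists of cells outside the tubule were also measured in the kidney libraries. Of 5 podocyte markers, *Ptpro* (1.01) and *Synpo* (0.84) rose in IgGK, and by edgeR none was called in LepK against IgGK, where log2 fold changes ran from -0.19 to 0.41. Of 6 endothelial markers, *Kdr* (-1.20), *Flt1* (-0.56) and *Tek* (-0.54) fell in IgGK, with summed levels of 247 to 284 normalized CPM in WTK, 186 to 203 in IgGK and 217 to 235 in LepK. Of 5 lymphocyte markers, the T cell genes *Cd3e* (2.81), *Cd3d* (2.25) and *Cd8a* rose in IgGK, and *Cd3d* fell in LepK against IgGK (-1.14). All 3 adipocyte markers rose in IgGK, with *Cidec* at 2.05 and *Adipoq* at 2.04, and *Adipoq* fell in LepK against IgGK (-1.26). Of 6 lung epithelium markers, 2 were measured in kidney and both rose in IgGK, the ciliated cell gene *Foxj1* (5.64) and *Ager* (1.66). In the lung libraries, where the summed level of the 6 was 16197 to 21875 in IgGL and 29842 to 46866 in LepL, 2 rose in LepL.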
